A study of Homo sapiens with 3 samples.

Results

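Antisense and intergenic long noncoding RNAs were read from capped transcript starts in the lung squamous carcinoma cell line EBC-1, an established human line, with and without knockdown of RAB11A. RAB11A is a small GTPase that returns cargo from recycling endosomes to the cell surface. Members were all entries whose symbol begins with LINC and a digit, or ends with -AS or -IT and 1 digit. The rule found 157 of 13479 listed entries: 116 antisense (-AS) entries named after a gene, 36 long intergenic (LINC) entries and 5 intronic (-IT) entries named after a host gene. Cap analysis of gene expression (CAGE) counts tags from the 5′ ends of capped RNA, so a level is a number of starts and needs no correction for transcript length. The 3 libraries came from EBC-1 cells electroporated with a negative control siRNA, with RAB11A siRNA 1 or with RAB11A siRNA 2, at 600 pmol each and with 72 h in the labels. All 3 share the same line, and each group was a single library of transiently transfected cells in bulk, with no stable clone and no rescue. Where 3 values follow each other below, they are in the order control, siRNA 1, siRNA 2. No difference below therefore has a replicate check, and every standard error (SE) or interval covers the counting of tags only.

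Antisense long noncoding RNAs are transcribed from the strand opposite a named gene, often from the same promoter region and away from it, which is called divergent transcription. Intergenic long noncoding RNAs have their own promoters outside annotated coding genes. Many of these transcripts are kept at low levels in the nucleus by the exosome, while a few, such as NORAD (LINC00657) and Cyrano (OIP5-AS1), are abundant, stable and well studied. The names predate later work: several entries host small nucleolar RNAs in their introns, and some were afterwards found to encode small proteins.

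The promoter sequences of 4 members, of a near-copy of 1 of them, and the start regions of 2 more are shown because the results below turn on them: a pair of loci that share their promoter, the only member at least 2-fold lower with siRNA 1 for which no copy was found, the abundant antisense RNAs OIP5-AS1 and FGD5-AS1, an entry whose start has exact copies, and the snoRNA host that was the most abundant -AS entry. All are RefSeq sequence of build GRCh38.p14, 5′ to 3′ on the strand of the gene. The promoters run from 250 bases before to 50 bases after the annotated start. In LINC00152 (CYTOR, chr2:87455177-87455476, plus strand) and AC068491.1 (MIR4435-2HG, chr2:111495112-111495411, minus strand) capitals mark the stretch they share. In DLGAP1-AS2 (chr18:3603487-3603786, plus strand) capitals mark TGAGTCA, the AP-1 site, on either strand. In OIP5-AS1 (chr15:41283740-41284039, plus strand) and FGD5-AS1 (chr3:14948392-14948691, minus strand) capitals mark the CCAAT box. LINC00623 is its first 50 transcribed bases (chr1:120912238-120912287, plus strand). For C17orf76-AS1 (SNHG29, chr17:16438957-16439036, plus strand) capitals mark the part of a longer pyrimidine run that lies within 10 bases before the annotated start.
LINC00152: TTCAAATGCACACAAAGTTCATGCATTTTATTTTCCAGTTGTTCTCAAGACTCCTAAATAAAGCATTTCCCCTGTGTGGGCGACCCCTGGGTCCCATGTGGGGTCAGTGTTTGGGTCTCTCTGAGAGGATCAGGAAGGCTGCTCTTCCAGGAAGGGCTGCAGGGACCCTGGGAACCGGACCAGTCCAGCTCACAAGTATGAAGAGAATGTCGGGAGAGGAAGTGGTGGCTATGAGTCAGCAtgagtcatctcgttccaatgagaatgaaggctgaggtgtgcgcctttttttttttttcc
AC068491.1: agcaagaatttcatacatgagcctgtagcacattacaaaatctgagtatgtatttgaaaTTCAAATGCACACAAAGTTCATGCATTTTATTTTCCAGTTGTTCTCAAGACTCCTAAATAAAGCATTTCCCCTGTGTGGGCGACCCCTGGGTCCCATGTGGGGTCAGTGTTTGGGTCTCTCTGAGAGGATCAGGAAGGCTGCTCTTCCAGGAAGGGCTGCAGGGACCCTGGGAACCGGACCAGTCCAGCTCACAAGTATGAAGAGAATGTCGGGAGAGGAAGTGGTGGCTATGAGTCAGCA
DLGAP1-AS2: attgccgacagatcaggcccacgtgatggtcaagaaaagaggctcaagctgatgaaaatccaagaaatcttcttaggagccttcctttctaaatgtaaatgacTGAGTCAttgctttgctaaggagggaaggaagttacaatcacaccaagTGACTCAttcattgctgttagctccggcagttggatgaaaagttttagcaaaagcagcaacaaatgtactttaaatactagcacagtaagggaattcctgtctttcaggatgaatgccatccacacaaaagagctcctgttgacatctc
OIP5-AS1: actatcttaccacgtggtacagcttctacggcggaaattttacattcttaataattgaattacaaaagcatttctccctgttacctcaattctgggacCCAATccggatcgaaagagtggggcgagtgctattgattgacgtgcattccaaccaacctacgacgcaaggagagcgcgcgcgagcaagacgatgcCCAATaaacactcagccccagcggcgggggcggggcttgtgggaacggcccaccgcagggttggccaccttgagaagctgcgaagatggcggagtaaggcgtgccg
FGD5-AS1: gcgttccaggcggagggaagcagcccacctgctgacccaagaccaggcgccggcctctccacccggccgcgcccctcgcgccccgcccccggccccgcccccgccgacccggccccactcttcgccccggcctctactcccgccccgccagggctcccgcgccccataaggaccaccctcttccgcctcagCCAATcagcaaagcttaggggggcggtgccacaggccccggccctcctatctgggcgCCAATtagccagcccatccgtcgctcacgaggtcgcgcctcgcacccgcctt
LINC00623: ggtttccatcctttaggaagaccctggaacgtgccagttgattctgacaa
C17orf76-AS1: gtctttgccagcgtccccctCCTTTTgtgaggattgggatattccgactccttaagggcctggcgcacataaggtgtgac

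A promoter was found in the RefSeq table for 132 of the 157 members, and these were richer in G and C than promoters at large. Their median GC content was 63.3%, against 58.7% over all 35116 promoters of 300 bases, and their median number of CpG pairs was 23.5 against 14. The TATA box, searched as TATAAA on both strands, was in 3.79% of member promoters and 11.5% of all. CCAAT, on both strands, was in 40.2% against 34.6%. The cyclic AMP response element TGACGTCA, a palindrome, was in 5.30% against 1.85%, which is 7 members. TTTGAA, the cell cycle homology region, was in 7.58% against 15.2%, and the E2F site, searched as TTTCCCGC or TTTGGCGC, was in 0 of 132 against 2.27%. The AP-1 site, added after the sequences had been seen, was in 8 members, 6.06% against 4.95% of all. A pyrimidine tract, a C followed by at least 5 C or T and beginning within 10 bases of the start, was in 20.5% of members and 20.8% of all. None of these motifs contains another, and a match describes letters in a window only. The sets compared are unlike. Members were all detected in EBC-1 and entered with the first RefSeq promoter each, while the 35116 promoters were not limited to genes listed here. Whether the differences are particular to these noncoding RNAs was not tested.

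RAB11A itself stood at 135.32, 7.48 and 22.68 CPM, tags per library brought to a common total, so that 5.53% and 16.8% of the control level were left. Its close relative RAB11B stood at 123.6, 113.32 and 97.36 CPM, and the antisense entry RAB11B-AS1 was low throughout, at 1.92, 1.84 and 2.04 CPM. Of the line's markers listed, the epithelial genes SFN (33.24, 44 and 42.04 CPM), PERP (140.52, 128.32 and 120.36 CPM) and S100A2 (23.64, 24.04 and 23.24 CPM) were present. The fibroblast collagens COL1A1 and COL1A2 did not exceed 2.28 CPM in any library. CD68, a lysosomal protein used as a leukocyte marker, was listed at 45.2, 21.08 and 31.4 CPM, and its part in any member's value was not tested. The remaining markers fixed for EBC-1 and for other cells are not among the listed entries. KRT5, KRT6A and TP63, fixed as markers of the squamous line, are among the absent ones. Every listed entry reached at least 0.52 CPM in 1 library, and no value is given for these genes. The squamous part of the label thus has no support from them, and why they are absent was not tested. Tags assigned to listed entries numbered between 25137457 and 25204585 per library, and 1 tag was worth 0.04 CPM. That step puts every library at a total near 25000000 tags, below the sums over entries, and neither the equal totals nor any subsampling is described in the labels. Tag counts and their intervals rest on this step. In bulk RNA, fewer cells that make a transcript and less of it per cell cannot be told apart.

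Most members were scarce. The median of their mean levels was 5.89 CPM, against 21.1 CPM over all listed genes, and it was 9.11 CPM for LINC entries and 4.69 CPM for antisense entries. Of the members, 88 averaged 5 CPM (125 tags) or more, which is 56.1% against 80.0% of all genes. Only these 88 were compared between libraries: 58 antisense, 26 LINC and 4 intronic entries. A further 54 lay between 1 and 5 CPM and 15 lay below 1 CPM. The lowest member compared was MCM3AP-AS1, with a mean of 5 CPM, and the highest left out was LINC00526, with 4.75 CPM. Summed over all 157, members made up 6360.72, 5720.96 and 5699.2 CPM, which is 0.632%, 0.567% and 0.567% of the listed total. The antisense sum (2683.12, 2152.2 and 2427.88 CPM) and the LINC sum (1207.48, 1024.24 and 1129.04 CPM) were lowest with siRNA 1. The intronic sum (2470.12, 2544.52 and 2142.28 CPM), mostly ENO1-IT1, was highest there. ENO1-IT1 has nearly the values of its coding host ENO1, given below. A large part of the sum over all members therefore cannot be told apart from that gene. Every member had at least 1 tag in each library, since no value was 0.

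**Figure D1:**
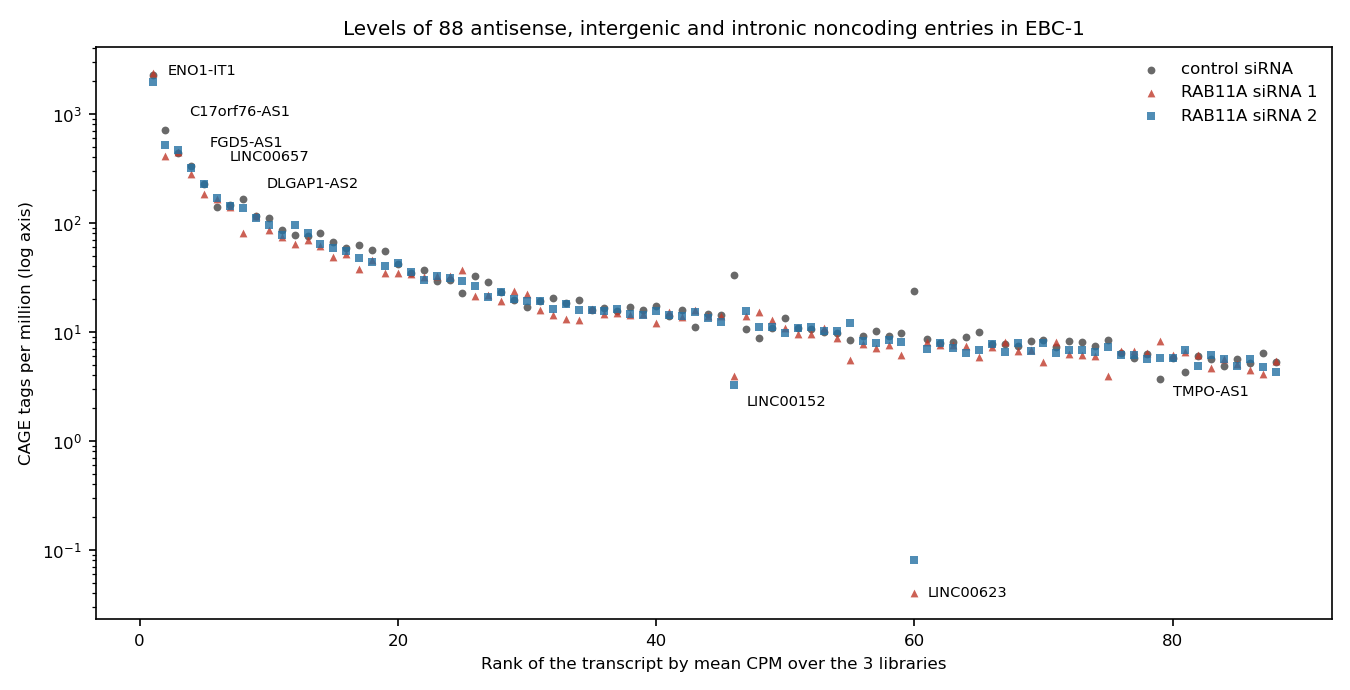
CAGE level in CPM on a log axis of the 88 members with a mean of at least 5 CPM, ranked by mean over the 3 libraries, with 1 point per library (circle control, triangle RAB11A siRNA 1, square RAB11A siRNA 2). The 3 points lie close together for most members, while LINC00152 and LINC00623 have a control point far above both siRNA points.

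The abundant end of the set held few transcripts, and part of it was not what the names say. ENO1-IT1 headed the list at 2279.52, 2362.8 and 1957.72 CPM, but its entry lies on the same strand as the glycolytic gene ENO1, which stood at 2282.32, 2367.52 and 1960.28 CPM. FAR1-IT1 (146.64, 139.88 and 141.08 CPM) and BRWD1-IT2 (29.84, 32.12 and 31.4 CPM) had exactly the values of their host genes FAR1 and BRWD1. These values cannot be told apart from those of the host genes. Among the 4 intronic entries compared, only BRD2-IT1 was listed at a level clearly different from its host. It stood at 10.24, 7.04 and 7.8 CPM beside 74.32, 66.76 and 65.76 CPM for BRD2. Both lie on the same strand with annotated starts 6 bp apart, so the tags of BRD2-IT1 may not be separate from those of BRD2. In all, 8 compared members had values identical to another listed entry.

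Among the antisense entries, FGD5-AS1 stood at 432.6, 449.76 and 464.68 CPM, log2 ratios to control of 0.06 (SE 0.02) and 0.10. MAGI2-AS3, named after a scaffold protein of cell junctions, stood at 114.76, 115.76 and 110.44 CPM. Both were thus nearly level across the libraries. OIP5-AS1, which pairs with a microRNA and limits it, stood at 110.32, 85.8 and 95.12 CPM, lower than control with both siRNAs (log2 ratios -0.36, SE 0.04, and -0.21). SETD5-AS1, named after a chromatin regulator, stood at 76.28, 69.56 and 80.16 CPM, and THAP9-AS1, named after a transposase-derived gene, at 80.28, 61.32 and 64.08 CPM.

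Among the intergenic entries, LINC00657 (NORAD), which binds Pumilio proteins and is tied to chromosome stability, stood at 334.36, 278.4 and 318.52 CPM. LINC00493 and LINC00116 are annotated as protein coding in the annotation used, as SMIM26 and MTLN, small proteins of mitochondria. LINC00493 stood at 225.64, 182.2 and 227.6 CPM, lower with siRNA 1 alone, and LINC00116 at 139.4, 164.24 and 169.68 CPM, higher with both siRNAs (log2 ratios 0.24 and 0.28). A start of LINC00116 has exact copies elsewhere on its chromosome. LINC00674 stood at 85.28, 73.72 and 76.76 CPM. Of the 157 members, 151 identifiers were found in the annotation, of which 139 are long noncoding RNAs, 5 are protein coding and 7 are of other kinds. The other 3 coding ones are MMP24-AS1 (now MMP24OS), TOPORS-AS1 (now SMIM27) and LINC00094 (now BRD3OS). A total of 37 have been renamed, 10 of them to names ending in -DT, which stands for divergent transcript.

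With siRNA 1, members were more often lower than control, mostly by small amounts. Against control, 3 of 88 members were at least 2-fold lower and 0 were at least 2-fold higher, where 0.519% and 0.371% of all 10788 genes compared were. The 3 were LINC00152, LINC00623 and DLGAP1-AS2. At 1.5-fold, a threshold added after the values had been seen, 10 members were lower and 3 were higher, beside 2.56% and 2.81% of all genes. On the log2 scale 61 members (69.3%) lay below 0 and 27 above it, against 54.6% and 45.1% of all genes, and the median log2 ratio was -0.17 against -0.03. The antisense entries had a median of -0.20 and the LINC entries one of -0.17. The median counting SE of a member's ratio was 0.10. An exact two-sided binomial test on recovered tags, with Benjamini-Hochberg adjustment, compares these 2 libraries and not the conditions. It called 11 members higher and 37 lower at an adjusted p of 0.05, beside 23.3% and 29.1% of all genes.

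With siRNA 2 the shift was smaller. LINC00152 and LINC00623 were at least 2-fold lower than control and 0 members were at least 2-fold higher, where 0.269% and 0.195% of all genes were. At 1.5-fold the counts were the same, 2 lower and 0 higher, beside 1.85% and 1.24% of all genes. Below 0 lay 57 members (64.8%) and above it 31, against 58.2% and 41.4% of all genes, and the median log2 ratio was -0.09 against -0.04. Under TMM scaling 49 of 87 members (56.3%) lay below 0, against 49.8% of all genes, and their median was -0.04. The binomial test on tags, exact and adjusted as before, called 10 members higher and 23 lower, beside 18.4% and 29.9% of all genes. Both ratios to control use the same control library, so a high or low control value enters both.

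Between the siRNA libraries, which do not use the control, members were lower with siRNA 1 than with siRNA 2 on balance. This comparison shares the siRNA 1 library with the ratios of siRNA 1 to control, so a low siRNA 1 value enters both. Only LINC00863 was at least 2-fold apart, at a log2 ratio of -1, and 0 members were 2-fold higher, where 0.185% and 0.167% of all genes were. At 1.5-fold 4 members were lower and 0 higher, beside 0.695% and 0.899% of all genes. Below 0 lay 53 members (60.2%) and above it 35, against 44.6% and 55% of all genes, and the median log2 ratio was -0.06 against 0.02. The exact binomial test on tags, adjusted as before, called 6 members higher and 22 lower, beside 21.4% and 15.4% of all genes.

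**Figure D2:**
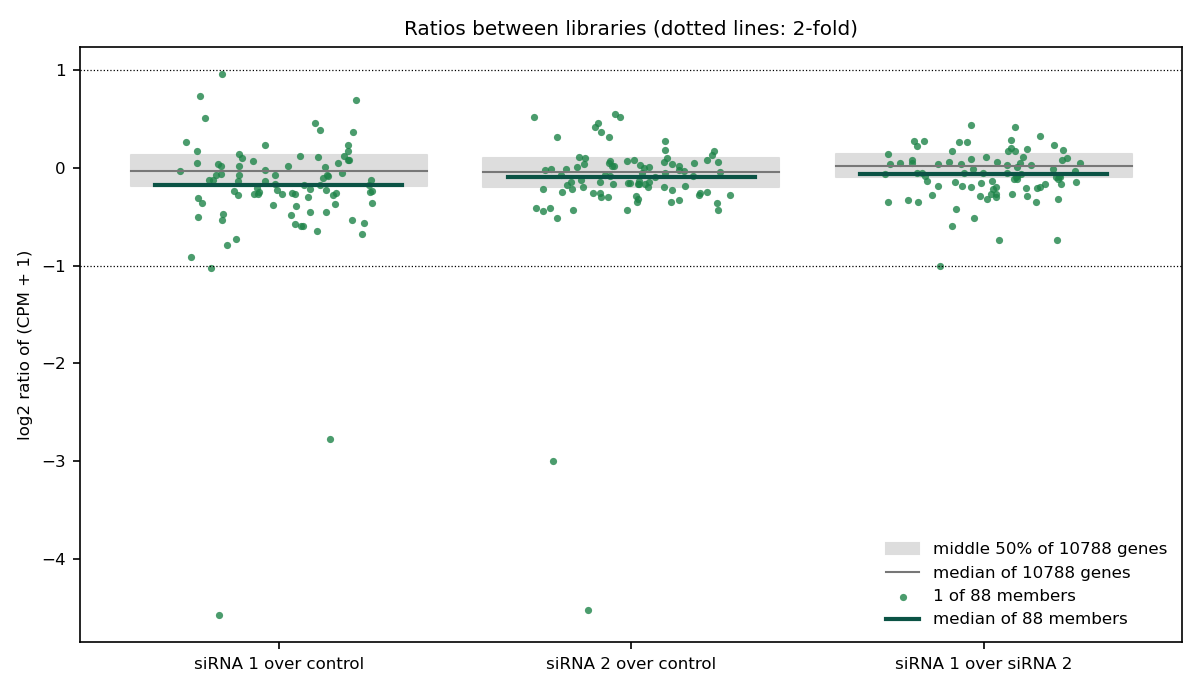
Log2 ratio of (CPM + 1) for each of the 88 members (points, spread sideways only to be seen) in the 3 comparisons, with the members' median (thick line) and the median and middle 50% of all 10788 genes compared (thin line and grey band). The members' median lies below that of all genes in each comparison, at -0.17, -0.09 and -0.06, and only LINC00152 and LINC00623 lie far below the 2-fold line.

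The 2 largest differences were in entries whose transcript starts have copies elsewhere in the genome. LINC00152 (CYTOR, an intergenic RNA often raised in tumours, chr2:87754300-87936259 in GRCh37, plus strand) stood at 32.88, 3.96 and 3.24 CPM, or 822, 99 and 81 tags. The tags left with siRNA 1 were 12.04% of those in control (95% exact interval 9.68 to 14.9), and with siRNA 2 they were 9.85% (7.74 to 12.4). On the log2 scale the ratios were -2.77 (SE 0.13) and -3.00 (SE 0.13). AC068491.1, today MIR4435-2HG (chr2:111763592-112280953, minus strand), carries a near-copy of the locus, and its promoter window printed above is identical to that of LINC00152 over all 241 bases that overlap once the windows are offset by 59 bases. It went the other way, from 2.52 CPM in control to 9.28 with siRNA 1 and 42.48 with siRNA 2. The sum of both entries was 35.4, 13.24 and 45.72 CPM, log2 ratios of -1.35 and 0.36, so with siRNA 2 the sum was not lower than control. The sources used here do not say how reads that match both places were assigned, and the entries' separate levels are uncertain for that reason.

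LINC00623 stood at 23.88, 0.04 and 0.08 CPM, or 597, 1 and 2 tags. Both siRNA values lie below the floor of 3 tags, 0.12 CPM, and were 0.168% of control (95% exact interval 0.00423 to 0.937) and 0.335% (0.0405 to 1.22). The 50 bases of its start printed above match GRCh37 chromosome 1 exactly at 5 places, which can include its own locus. One is the start of RP6-206I17.1 (chr1:143647638-143745417, minus strand), which stood at 5.64, 19.68 and 16.24 CPM, log2 ratios of 1.64 and 1.38. Again the partner was higher where the member was lower. Their sum was 29.52, 19.72 and 16.32 CPM, log2 ratios of -0.56 and -0.82, below control in both siRNA libraries and short of 2-fold.

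NUTM2A-AS1 (chr10:88949530-89102369, minus strand) and LINC00863 (chr10:89101442-89117639, plus strand) lie on opposite strands. Their nearest annotated starts are 124 bp apart, and their annotated spans overlap. NUTM2A-AS1 stood at 76.4, 63.24 and 95.6 CPM, and LINC00863 at 8.4, 5.48 and 11.96 CPM. Both were thus lowest with siRNA 1 and highest with siRNA 2, with log2 ratios between the siRNA libraries of -0.59 (SE 0.05) and -1. This locus has near-copies too, and the entry RP11-773D16.1 at one of them (chr10:81421150-81586350, minus strand) stood at 14.56, 3.08 and 2.84 CPM, low with both siRNAs. The sum of NUTM2A-AS1 and RP11-773D16.1 was 90.96, 66.32 and 98.44 CPM. In total 35 of the 157 members, and 22 of the 88 compared, had an annotated start whose first 50 bases matched another place in GRCh37 with at most 2 mismatches. Another 63 compared members were searched and had none, and without the entries that have copies or are absent from the annotation DLGAP1-AS2 alone was 2-fold lower with siRNA 1 and 0 members were with siRNA 2.

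**Figure D3:**
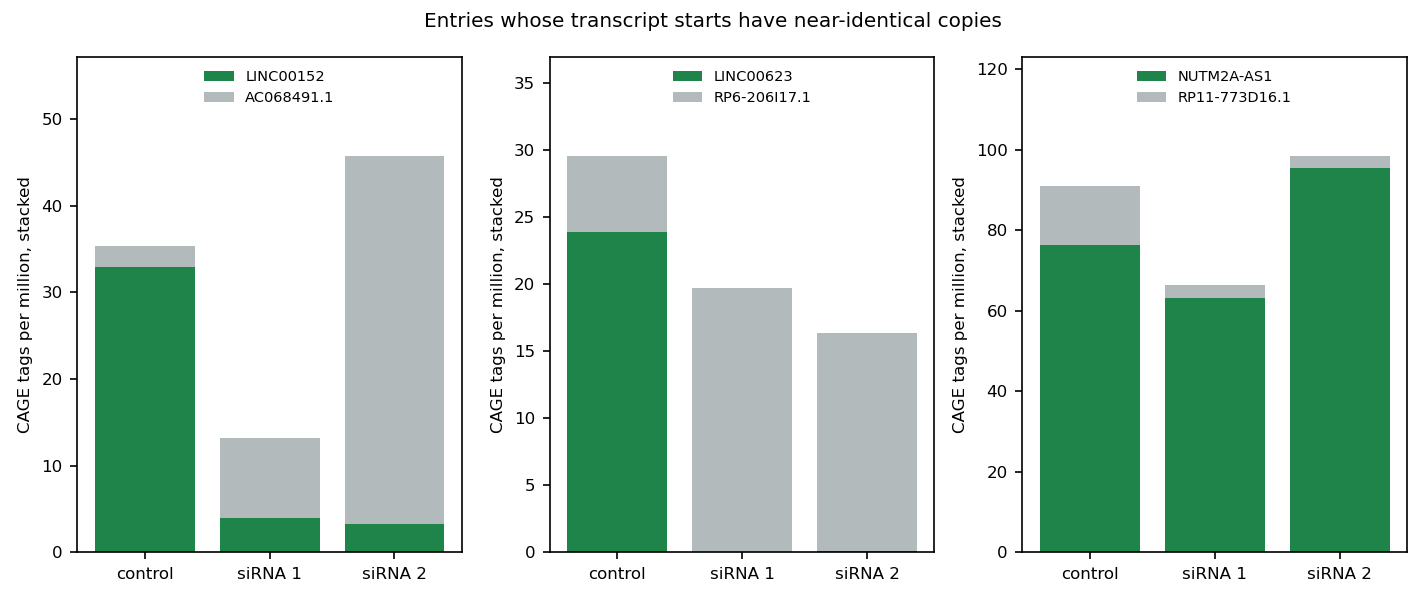
CAGE level in CPM per library, from 0, of 3 members (green) stacked with the listed entry at a near-copy of their start (grey): LINC00152 with AC068491.1, LINC00623 with RP6-206I17.1, and NUTM2A-AS1 with RP11-773D16.1. The split within each pair differs between the control and siRNA libraries, and the stacked sum of LINC00152 and AC068491.1 is 35.4, 13.24 and 45.72 CPM.

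DLGAP1-AS2 (chr18:3602998-3610101, plus strand), named after a postsynaptic scaffold gene, was the only 2-fold lower member with no copy found. It stood at 165.24, 80.6 and 135.08 CPM, or 4131, 2015 and 3377 tags. The siRNA 1 library held 48.8% of the control tags (95% exact interval 46.2 to 51.5), the siRNA 2 library 81.7% (78.1 to 85.6). On the log2 scale the ratios were -1.03 (SE 0.04) and -0.29. DLGAP1-AS1, on the same strand and named after the same gene, was level at 34.36, 33.68 and 35.56 CPM. The promoter of DLGAP1-AS2 printed above holds TGAGTCA in 2 places, 1 on each strand, and neither CCAAT nor TATAAA.

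Some hosts of small nucleolar RNAs were among the lower members. C17orf76-AS1 (SNHG29, chr17:16342081-16383563, plus strand) stood at 708.76, 409.84 and 520.56 CPM, log2 ratios of -0.79 (SE 0.02) and -0.44. Its values are identical to those listed for SNORD49A and SNORD49B, which lie within it, so these entries cannot be told apart here. EPB41L4A-AS1 (chr5:111496223-111500515, plus strand), the host of SNORA13 and identical to it in the table, stood at 62.84, 37.68 and 47.2 CPM, log2 ratios of -0.72 (SE 0.06) and -0.41. LINC00338 (SNHG20), identical to SCARNA16 and with a start that has copies, did not share this pattern, at 14.24, 14.08 and 12.32 CPM. Host genes outside the rule went both ways. SNHG5 had log2 ratios of -0.46 and -0.20, and SNHG8 had 0.26 and 0.19. C17orf76-AS1 has the pyrimidine run of the start region printed above, a feature that it shares with 20.8% of all promoters.

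Other members with a mean of at least 10 CPM at the low end had no copies. LINC00662 (chr19:28171980-28284913, minus strand) stood at 54.84, 34.8 and 40.48 CPM, log2 ratios of -0.64 (SE 0.06) and -0.43. LBX2-AS1, named after a homeobox gene, stood at 28.52, 21.64 and 20.96 CPM. Both were lower than control with either siRNA. TOPORS-AS1 (18.44, 13.2 and 17.92 CPM) and LINC00094 (17.12, 12.08 and 15.4 CPM), both now annotated as coding, were lower chiefly with siRNA 1, with log2 ratios between the siRNA libraries of -0.41 and -0.33.

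Few members were well above control. LINC00472 (chr6:71896864-72130448, minus strand) stood at 8.72, 15.16 and 11.08 CPM, log2 ratios of 0.73 (SE 0.11) and 0.31, and has a start with a copy. SERTAD4-AS1 (chr1:210404801-210407392, minus strand) stood at 22.48, 37.2 and 29.44 CPM, log2 ratios of 0.70 (SE 0.07) and 0.37. TMPO-AS1 (chr12:98906751-98910200, minus strand) stood at 3.72, 8.2 and 5.76 CPM, log2 ratios of 0.96 (SE 0.15) and 0.52. In these 3 the siRNA 1 library was the highest and the control library the lowest. LINC00839 was higher with siRNA 1 alone, at 19.36, 23.56 and 19.8 CPM. HNRNPU-AS1 stood at 10.48, 13.8 and 15.48 CPM, but its entry lies on the same strand as HNRNPU, an RNA-binding protein of the nucleus, and its identifier is not in the annotation used, so it counts among the pairs below by name only.

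Of the members known from earlier work, 23 were listed and 20 compared. Their median log2 ratio was -0.24 for siRNA 1 and -0.18 for siRNA 2, beside -0.03 and -0.04 over all genes. LINC00152 was the only one at least 2-fold from control, listed as lower with either siRNA. Of all genes, 0.371% were at least 2-fold higher and 0.519% lower with siRNA 1, and 0.195% and 0.269% with siRNA 2. The sum of LINC00152 and its near-copy AC068491.1 was not lower than control with siRNA 2, as given above. LINC00665 (55.64, 45.16 and 43.64 CPM), MAPKAPK5-AS1 (37.04, 31.44 and 30.08 CPM) and GABPB1-AS1 (16.8, 14.28 and 14.6 CPM) were somewhat lower with both siRNAs. SBF2-AS1 (29.24, 32.4 and 32.12 CPM) and LINC00263 (10.8, 12.88 and 11.12 CPM) were slightly higher, and LINC00467 (16.64, 14.64 and 15.64 CPM) was slightly lower. TTN-AS1 stood at 9, 7.4 and 6.44 CPM and MCM3AP-AS1 at 5.32, 5.4 and 4.28 CPM. Of these, LINC00665, LINC00263, LINC00467 and TTN-AS1 have starts with copies elsewhere. Too low to compare were LINC00460 (3.72, 4.4 and 2.72 CPM), LINC00511 (1.08, 1.16 and 2.24 CPM) and RAB11B-AS1.

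Each antisense entry was set beside the sense gene of its name, which was listed for 93 of 116. The strands were opposite in 92 pairs, and the starts could be placed in 90. They lay within 1 kb of each other in 68 pairs and farther apart in 22, with a median distance of 122.5 bp. Antisense levels were mostly below sense levels, with a median ratio of means of 0.144 and a lowest ratio of 0.00341 for SLC25A5-AS1. The antisense entry was the more abundant in 14 of the 93 pairs. MAGI2-AS3 exceeded MAGI2 86.1-fold, at 114.76, 115.76 and 110.44 CPM beside 1.44, 1.04 and 1.48 CPM. THAP9-AS1 exceeded THAP9 48.5-fold, and TP73-AS1 exceeded TP73, a gene of the p53 family, 15.7-fold at 15.96, 16.24 and 15.68 CPM beside 1.4, 0.68 and 0.96 CPM. OIP5-AS1 stood 4.05-fold, LBX2-AS1 3.84-fold, TMEM161B-AS1 2.97-fold and SERTAD4-AS1 2.96-fold above the sense gene.

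**Figure D4:**
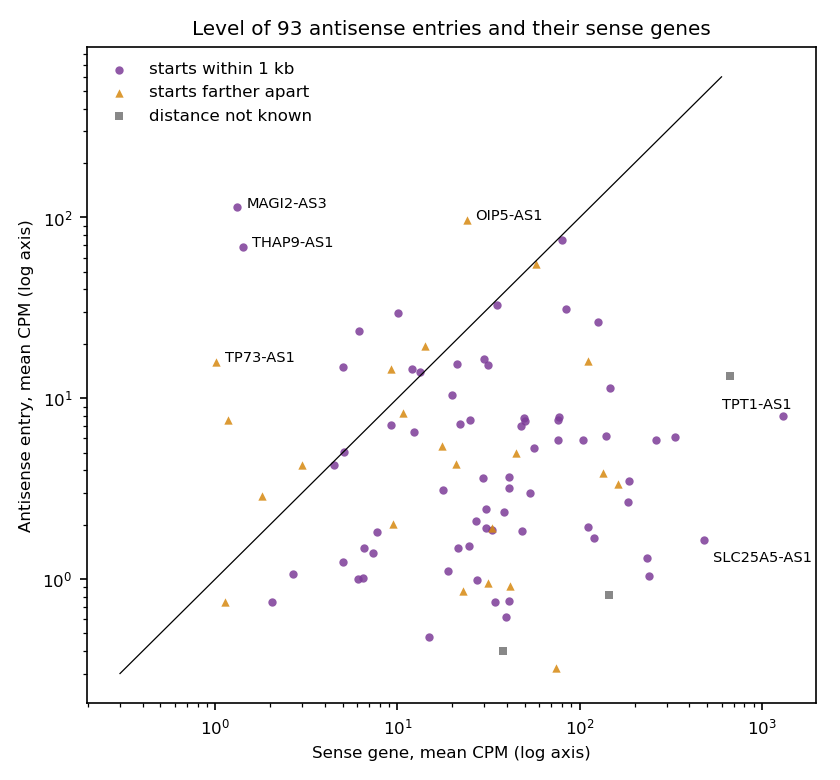
Mean CPM over the 3 libraries of 93 antisense entries against the sense gene of the same name, both on log axes, with circles for starts within 1 kb, triangles for starts farther apart and squares where no distance could be had. The line marks equal levels, and 14 pairs lie above it, with MAGI2-AS3 at 86.1 times the level of MAGI2.

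Both transcripts had a mean of at least 5 CPM in 40 pairs, and in these the ratios to control were compared. With siRNA 1 both were above control in 4 pairs and both below in 16, and with siRNA 2 the numbers were 8 and 18. The antisense entry alone was above control in 11 pairs with siRNA 1 and 8 with siRNA 2. The sense gene alone was above it in 9 and 6. Across the 40 pairs Pearson's r between antisense and sense ratios was 0.29 with siRNA 1 and 0.22 with siRNA 2, a description of pairs that all share the same libraries. For the 31 pairs with starts within 1 kb Pearson's r was 0.48 and 0.37. Spearman's rank correlation was 0.17 and 0.26 over the 40 pairs, and 0.29 and 0.45 over the 31. For the 8 with starts farther apart Pearson's r was -0.46 and -0.25, which so few pairs leave loosely determined. Antisense and sense ratios differed by at least 2-fold in 1 pair with siRNA 1, 0 with siRNA 2 and 0 between the siRNA libraries. At 1.5-fold the counts were 5, 4 and 1 of 40.

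That 1 pair was OIP5-AS1 and OIP5, which encodes a centromere protein of the Mis18 complex. OIP5-AS1 was lower with both siRNAs, as given above, while OIP5 stood at 17.52, 30.64 and 23.72 CPM, log2 ratios of 0.77 and 0.42. The antisense ratio minus the sense ratio was -1.13 (SE 0.09) with siRNA 1 and -0.63 (SE 0.10) with siRNA 2. Their annotated starts lie far apart, in the class beyond 1 kb, and the OIP5-AS1 promoter printed above holds CCAAT in 2 places. Of the 24 annotated starts of OIP5-AS1, 1 matches 2 other places, so this entry drops out when those with copies are left out. For LINC00152, 32 of 33 starts have copies.

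Other pairs differed by less. PTPRG-AS1 stood at 16.8, 22.32 and 19.16 CPM while PTPRG, a receptor tyrosine phosphatase, stood at 17.04, 11.76 and 13.64 CPM, a difference of 0.89 (SE 0.13) on the log2 scale with siRNA 1 and 0.48 with siRNA 2. The listed start nearest to PTPRG-AS1 on the other strand is that of C3orf14, 55 bp away, which like PTPRG-AS1 was highest with siRNA 1, at 66.64, 96.64 and 83.44 CPM. PSMG3-AS1 stood at 8.12, 6.08 and 6.84 CPM while PSMG3, a proteasome assembly chaperone, stood at 39.16, 49.36 and 54.16 CPM, differences of -0.69 (SE 0.15) and -0.68 although the starts are 28 bp apart. ZEB1-AS1 stood at 8.44, 5.28 and 7.96 CPM and ZEB1, a transcription factor of epithelial-mesenchymal transition, at 20.88, 23.56 and 22.04 CPM, so they differed with siRNA 1 (-0.75, SE 0.16) more than with siRNA 2 (-0.15).

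UGDH-AS1 was low with both siRNAs at 10.04, 5.92 and 6.76 CPM, while UGDH, which makes UDP-glucuronate, stood at 77.8, 72.6 and 76.92 CPM. TTC28-AS1 was higher with both at 11.08, 15.68 and 15.16 CPM, beside TTC28 at 13.2, 11.96 and 14.72 CPM. Its nearer opposite-strand neighbour PITPNB, a phospholipid transfer protein, stood at 100.52, 110.92 and 104.76 CPM. With siRNA 2 the largest difference among the opposite-strand pairs with both means of at least 5 CPM was that of ZNF674-AS1, level at 13.88, 15.2 and 14.32 CPM while the zinc finger gene ZNF674 stood at 15.52, 11.36 and 9.04 CPM (0.76, SE 0.15).

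Some pairs with starts close together shared a direction. SERTAD4 stood at 7.6, 13.12 and 9.4 CPM, log2 ratios of 0.72 and 0.27, close to the 0.70 and 0.37 of SERTAD4-AS1. TMPO, which encodes lamina-associated polypeptides of the nuclear envelope, stood at 216.88, 302.76 and 269.36 CPM, log2 ratios of 0.48 and 0.31, above control in the same 2 libraries as TMPO-AS1, whose start is 42 bp away. In both pairs control was the lowest library for sense and antisense.

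On the lower side, LOXL1-AS1 stood at 8.32, 3.96 and 7.28 CPM and LOXL1, a lysyl oxidase relative that crosslinks elastin, at 12.72, 9 and 15.4 CPM, so both were lowest with siRNA 1 and the sense gene alone was above control with siRNA 2. TPT1-AS1 stood at 9.8, 6.16 and 8.12 CPM beside TPT1, the translationally controlled tumour protein, at 1491.8, 1202.8 and 1215.28 CPM. Some starts of TPT1-AS1 have copies elsewhere. WAC-AS1 stood at 32.12, 21.24 and 26.04 CPM beside WAC, an adaptor protein with a WW domain, at 145.08, 120.72 and 114.44 CPM. In both pairs sense and antisense were below control with either siRNA. FOXN3-AS1 (6.32, 4.08 and 4.76 CPM) with the forkhead repressor FOXN3 (5.8, 4.32 and 5.16 CPM), and TRAF3IP2-AS1 (8.24, 6.2 and 6.8 CPM) with the cytokine receptor adaptor TRAF3IP2 (10.6, 8.56 and 8.52 CPM), shared that order of control above both siRNAs.

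**Figure D5:**
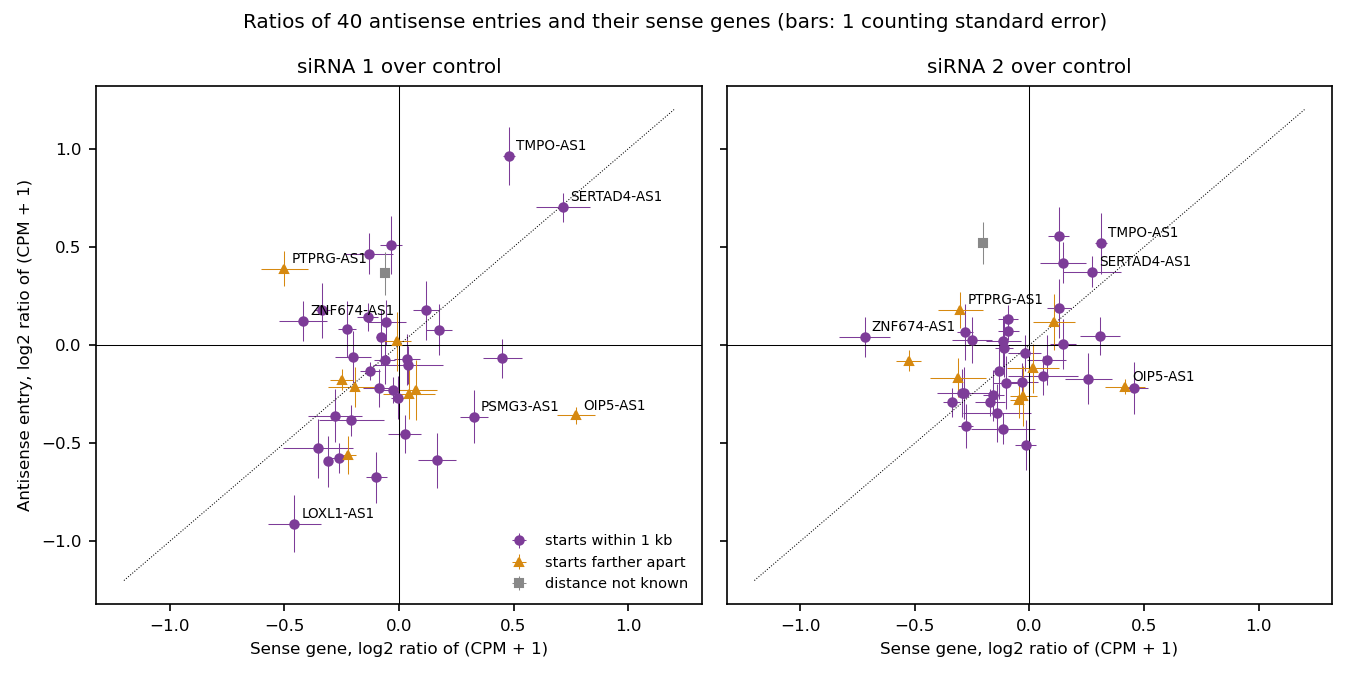
Log2 ratio to control of 40 antisense entries (vertical) against that of their sense genes (horizontal) for siRNA 1 (left) and siRNA 2 (right), with bars of 1 counting SE and symbols by the distance between starts. OIP5-AS1 lies at lower right in both panels, with antisense minus sense ratios of -1.13 and -0.63, and TMPO-AS1 and SERTAD4-AS1 lie at upper right.

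The gene with a nearby start on the opposite strand need not be the one in the name. Distance was taken without regard to orientation. The pairs below thus mix divergent starts with starts that lie downstream of the other gene's start, such as that of SERTAD4-AS1. A listed entry on the opposite strand started within 1 kb of 93 members, 6 of them LINC entries, and 43 such distinct pairs had both means at or above 5 CPM. Over these 43, Pearson's r between the ratios was 0.54 with siRNA 1, 0.35 with siRNA 2 and 0.68 between the siRNA libraries. Spearman's rank correlation was 0.43, 0.34 and 0.60 in the same order. Without the duplicated NUTM2A-AS1 locus Pearson's r was 0.54, 0.30 and 0.64 over 42 pairs. The member was the more abundant transcript in 12 of the 43. FGD5-AS1 was one, at 432.6, 449.76 and 464.68 CPM beside 51.04, 48.48 and 47.6 CPM for the nuclear receptor NR2C2, 37 bp away. NOP14-AS1 went apart from such a neighbour, at 19.48, 12.88 and 15.88 CPM beside 35.12, 38.6 and 42.84 CPM for the transporter-like gene MFSD10, 48 bp away, and BOLA3-AS1 was higher with both siRNAs, at 4.28, 6.52 and 6.76 CPM, beside a level BOLA3 at 74.68, 72.88 and 81.68 CPM.

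Long noncoding RNAs named in other ways were set beside the members. Of 24 listed, 21 were compared and 0 were at least 2-fold from control with either siRNA, where 0.371% of all genes were higher and 0.519% lower with siRNA 1, and 0.195% and 0.269% with siRNA 2. At 1.5-fold, 3 of the 21 were lower and 0 higher with siRNA 1, beside 2.56% and 2.81% of all genes. With siRNA 2 both counts were 0, beside 1.85% and 1.24% of all genes. The median log2 ratios of the 21 were -0.06 and -0.04, beside -0.03 and -0.04 over all genes. NEAT1, the scaffold of paraspeckles, stood at 1353.68, 815.56 and 909.6 CPM, and MIR22HG, a microRNA host, at 56.8, 30.88 and 38.56 CPM, both below control with either siRNA. TERC, the RNA template of telomerase, was above it, at 478.2, 602.12 and 693.08 CPM.

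Genes of the machinery that degrades or terminates unstable nuclear transcripts had ratios centred close to those of all genes. Of 40 genes of the exosome, its adaptors, Integrator and decay listed, 39 were compared, and their median log2 ratio was -0.02 for siRNA 1 and -0.07 for siRNA 2, beside -0.03 and -0.04 over all genes. Only PABPN1, the nuclear poly(A)-binding protein that also guides polyadenylated transcripts to the exosome, was at least 2-fold lower, with siRNA 2, which is 1 of 39 where 0.269% of all genes were. It stood at 198.88, 110.6 and 98.08 CPM, log2 ratios of -0.84 and -1.01. Within Integrator, INTS6 was lower at 48.28, 32.48 and 33.88 CPM and INTS7 higher at 13.64, 20.28 and 19.72 CPM. Whether any of these has a part in the members' values was not tested.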

How the data were processed

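Total RNA of EBC-1 cells had been turned into CAGE libraries, 1 for each of 3 siRNA treatments. The authors deposited CPM per gene and strand, brought to a common total, with 1 column per library. The submitters' processing notes name hg19, BWA and HISAT2. Not given in the sources used here are their versions and roles, the counting tool and what was done with reads that match several places. Every listed entry reached at least 0.52 CPM in 1 library, so rarer noncoding transcripts are absent from it. Within 0.005 CPM, 99.9% of the deposited CPM values in each library were multiples of 0.04, and whole tags were recovered from them. Each gene's values share the same 3 libraries, and nothing in the labels names a repeat culture.

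The measure was the log2 ratio of (CPM + 1), for entries with a mean of at least 5 CPM. This scale understates the ratio of low entries. Counting SEs came from the Poisson variance of tags, and intervals of tag ratios were exact (Clopper-Pearson). PCR copies of a molecule cannot be told apart here, so both cover counting error only. The exact binomial test on recovered tags was adjusted over all 10788 entries. The scripts were tested on simulated data.

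The members and gene lists were chosen with earlier results of these data known. The text names members at least 2-fold apart in any comparison, the 12 with the highest mean, the 5 highest and 5 lowest ratios per comparison among means of at least 10 CPM, members of the fixed lists, and for antisense and sense pairs the 6 largest differences and the 6 with both ratios farthest from 0 in 1 direction. Outside that rule, some intronic entries, antisense entries more abundant than their sense gene and members near an opposite-strand start were named after their values were seen. Among them were THAP9-AS1, TP73-AS1, BRD2-IT1, BRWD1-IT2, DLGAP1-AS1, SETD5-AS1, NOP14-AS1 and BOLA3-AS1. One entry that the rule names is not reported here. Positions are from GENCODE lifted to GRCh37, and promoters are from RefSeq on GRCh38.p14. Starts were searched against GRCh37 with blastn 2.17.0. Alternatives were no filter or a minimum mean of 1 or 20 CPM, a pseudocount of 0.5 or 5 CPM, TMM from edgeR 4.0.16 in R 4.3.3, median ratios, identical entries counted once, leaving out entries with copies, and the binomial test. The rest was done in Python 3.11.15 (matplotlib 3.10.9, pysam 0.24.0, scipy 1.17.1, pandas 2.3.3, numpy 2.4.6).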

Additional observations from a re-analysis of the deposited data

Results flagged for a closer look

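NUTM2A-AS1 stood below control with siRNA 1 and above it with siRNA 2, by at least 0.25 on the log2 scale each way, and the log2 ratio between the siRNA libraries was -0.59. LINC00863, which starts beside it, did the same, with a log2 ratio of -1. The difference was not tested, since each siRNA has 1 library, and both entries have near-copies elsewhere in the genome.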

How the results depend on the processing

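The members' median log2 ratio kept its sign under all 9 settings that give one, from -0.26 to -0.12 for siRNA 1 over control, from -0.12 to -0.04 for siRNA 2 over control and from -0.10 to -0.05 for siRNA 1 over siRNA 2. Counts of members and pairs were small and moved with the threshold. The binomial test on tags, which has no fold threshold, called 11 members higher and 37 lower for siRNA 1 over control, 10 and 23 for siRNA 2 over control, and 6 and 22 for siRNA 1 over siRNA 2. At 1.5-fold, 3 members were higher and 10 lower for siRNA 1 over control and 4 were lower for siRNA 1 over siRNA 2, and 5, 4 and 1 pairs lay apart for siRNA 1 over control, siRNA 2 over control and siRNA 1 over siRNA 2. With a minimum mean of 20 CPM, which tests 29 members, 1 was lower for siRNA 1 over control and 0 in the other comparisons. Without entries that have copies or are not in the annotation, the lower counts were 1, 0 and 0 for siRNA 1 over control, siRNA 2 over control and siRNA 1 over siRNA 2, and 0 pairs lay apart for siRNA 1 over control. A pseudocount of 0.5 CPM put 1 member 2-fold higher for siRNA 1 over control, and 1 of 5 CPM left 0 lower for siRNA 1 over siRNA 2. With a minimum mean of 1 CPM, 3, 1 and 2 pairs lay 2-fold apart for siRNA 1 over control, siRNA 2 over control and siRNA 1 over siRNA 2, and with no filter 4, 1 and 3. The other 96 values stayed within 1.5 times the main count or close to the main median. No paired analysis was possible because each group has 1 library. A member at 5 CPM rests on 125 tags, and a low member's ratio carries more counting error than an abundant one's.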

Other observations

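Members below the mean of 5 CPM were listed but not compared. Among them the levels in control and then with siRNA 1 and siRNA 2 were 0.88, 2.4 and 2.16 CPM for LINC00702, and 2.68, 4.8 and 3.48 CPM for PRKAG2-AS1, named after a subunit of AMP-activated kinase. CRYM-AS1 stood at 3.6, 1.64 and 2.48 CPM and KDM5B-AS1, named after a histone demethylase, at 3.04, 1.44 and 1.28 CPM. These were chosen after their values were seen, as the largest ratios with siRNA 1 on either side.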
